A study of Homo sapiens with 18 samples.

Results

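The glucocorticoid receptor (GR) binding regions (GBR) described here are those whose summit lay within 100 kb of the transcription start site (TSS) of 10 genes that encode ETS transcription factors taken to be expressed in mesenchymal cells: ETS1, ETS2, ELK1, ELK3, ELK4, ELF1, ETV1, ETV4, ETV5 and ETV6. The TSS of each gene was that of its canonical transcript in GENCODE release 44, so the genes, and not the height of any peak, chose the GBR. The 10 genes themselves were chosen with earlier results of these data known. Of the 9533 GBR called after depletion of Hic-5 alone, 19 met this rule, and every peak of the other 5 lists near these genes overlapped one of the 19. There were 4 such GBR of 2582 in control cells, 4 of 2451 after depletion of Hic-5 and CHD9, 4 of 3383 after depletion of Hic-5 and BRM, 2 of 1415 after depletion of CHD9 and 2 of 1278 after depletion of BRM.

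GR ChIP-seq was performed in U2OS-GRα cells, a derivative of the established human osteosarcoma line U2OS that stably expresses GRα. The cells received siRNA for 48 h in 6 combinations: a non-specific control (siNS/siNS), siHic5/siNS, siCHD9/siHic5, siBRM/siHic5, siCHD9/siNS and siBRM/siNS. All groups, the control included, were then given 100 nM dexamethasone (dex) for 1 h, so no list shows cells without hormone. Each combination had 2 ChIP libraries, 12 in all, and there were 6 input libraries. The authors called peaks on the pooled replicates of a combination, which leaves 1 list per combination and no spread between replicates, and the intervals given for shares cover counting error only. Expression was not measured in these files, so neither the depletion of the siRNA targets nor the presence of any ETS factor could be checked. The known GR target FKBP5 had 8 or 9 GBR within 100 kb in each of the 6 lists and PER1 had 1 or 2, while TSC22D3 had 0 to 5. The lists were not cut at a common strength, with lowest −log10 q-values from 7.26 to 8.91 in 5 lists and 14.2 in siBRM/siHic5. A region that is missing from a list may still have carried GR below that list's cutoff.

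GR is a steroid-activated nuclear receptor that binds the GR response element (GRE), a palindrome of short arms separated by 3 bases, and it often occupies sites together with factors such as AP-1. Hic-5 is a LIM-domain coregulator of GR, CHD9 is a chromodomain-helicase remodeling ATPase, and BRM is an ATPase of SWI/SNF remodeling complexes. ETS factors share a winged helix-turn-helix domain that recognizes GGAA. ETS1 and ETS2 are the founding members. ELK1, ELK3 and ELK4 are ternary complex factors that act with serum response factor and are phosphorylated by ERK. ETV1, ETV4 and ETV5 form the PEA3 group, ETV6 is mainly a repressor, and ELF1 belongs to a further branch of the family. ETS factors that ERK phosphorylates thus carry growth factor signals to promoters and enhancers.

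A siHic5/siNS GBR was called shared if a siNS/siNS peak overlapped it by at least 1 bp, and blocked if none did. Blocked GBR by this rule differ from those in most of the study's results, which needed a significant change in binding above a fold cutoff. Just 4 of the 19 GBR were shared, and their reference sequences (GRCh38/hg38, plus strand) are shown because they were the only ones near these genes called in control cells. Capitals mark matches to the GRE, which may differ from the consensus at 1 of 10 defined positions, or to the AP-1 element, TGACTCA or TGAGTCA. The ELK1 region is chrX:47562523-47562681, the ELK3 region chr12:96196931-96197051, the ELF1 region chr13:41060171-41060291 and the ETV4 region chr17:43570699-43570987.
ELK1, 88.0 kb downstream: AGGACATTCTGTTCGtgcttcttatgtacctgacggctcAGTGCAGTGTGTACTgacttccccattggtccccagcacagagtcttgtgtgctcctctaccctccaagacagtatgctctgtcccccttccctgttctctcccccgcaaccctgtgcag
ELK3, 2.62 kb downstream: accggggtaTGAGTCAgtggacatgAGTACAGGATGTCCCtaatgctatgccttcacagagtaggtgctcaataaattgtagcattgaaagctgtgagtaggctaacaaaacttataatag
ELF1, 40.9 kb upstream: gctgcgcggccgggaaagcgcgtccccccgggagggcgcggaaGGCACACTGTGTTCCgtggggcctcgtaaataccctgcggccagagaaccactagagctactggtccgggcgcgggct
ETV4, 24.5 kb upstream: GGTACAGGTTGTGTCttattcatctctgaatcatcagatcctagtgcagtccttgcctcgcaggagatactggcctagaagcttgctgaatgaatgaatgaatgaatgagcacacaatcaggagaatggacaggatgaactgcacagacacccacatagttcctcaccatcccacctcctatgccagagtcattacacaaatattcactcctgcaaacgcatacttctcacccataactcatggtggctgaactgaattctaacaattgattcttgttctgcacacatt

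Each of these 4 windows held a GRE match. The matches at ELK3 and ELF1 had no mismatch, and the one at ETV4 lay at the edge of the printed window, 137 bp from the summit, compared with 10 to 33 bp for the nearest match at the other genes. The ELK3 sequence also held an AP-1 match, in which TGAGTCA ended 9 bases before the GRE match. Beyond the printed windows, the ELK1 and ETV4 GBR had AP-1 matches too, 466 and 257 bp from the summit. In the ETV4 sequence the summit side carried TGAA repeated 5 times in a row, 39 to 58 bp from the summit.

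For contrast, 5 blocked GBR are shown, chosen after their values were seen to cover what the blocked regions held. The first ETS2 region (chr21:38753539-38753659) had a GRE match with no mismatch next to a second match, and the other ETS2 region (chr21:38787668-38787870) had AP-1 matches alone. The ETV4 region (chr17:43536180-43536380) was the only one of the 19 with GRE, AP-1 and ETS matches together. The ETS1 region (chr11:128628709-128628951) had GRE matches with 1 mismatch, and an ETS match beyond the printed window, 231.5 bp from the summit. The ELK1 region (chrX:47645609-47645729) was the strongest blocked GBR and had no match. Build, strand and capitals are as above, with ETS matches also in capitals.
ETS2, 52.3 kb upstream: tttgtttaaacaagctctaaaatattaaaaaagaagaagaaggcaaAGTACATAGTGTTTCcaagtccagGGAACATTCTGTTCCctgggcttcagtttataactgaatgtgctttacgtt
ETS2, 18.2 kb upstream: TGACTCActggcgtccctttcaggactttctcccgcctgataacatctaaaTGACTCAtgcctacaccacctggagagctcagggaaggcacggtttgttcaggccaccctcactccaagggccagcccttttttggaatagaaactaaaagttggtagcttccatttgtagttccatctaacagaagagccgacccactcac
ETV4, 10.1 kb downstream: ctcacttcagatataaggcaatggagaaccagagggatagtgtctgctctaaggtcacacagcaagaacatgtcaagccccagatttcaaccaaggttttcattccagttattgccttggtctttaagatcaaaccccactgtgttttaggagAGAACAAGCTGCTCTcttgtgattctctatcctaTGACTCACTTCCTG
ETS1, 41.3 kb upstream: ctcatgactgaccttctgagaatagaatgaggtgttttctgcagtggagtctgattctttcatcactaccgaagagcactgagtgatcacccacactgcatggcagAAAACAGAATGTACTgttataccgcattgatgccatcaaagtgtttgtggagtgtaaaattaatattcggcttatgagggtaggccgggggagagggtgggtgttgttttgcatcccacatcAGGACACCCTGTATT
ELK1, 4.89 kb downstream: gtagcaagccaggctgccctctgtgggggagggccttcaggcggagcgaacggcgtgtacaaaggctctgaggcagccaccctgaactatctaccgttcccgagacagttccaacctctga

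At the ETV4 GBR 10.1 kb downstream of the TSS, the capitals at the end merge an AP-1 match, TGACTCA, and an ETS match on the minus strand, CAGGAAGT, which share 1 base. The GRE match AGAACAAGCTGCTCT lay 30 bp from this AP-1 match, middle to middle.

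GR occupancy near these genes was first compared between control and Hic-5 depleted cells, by the peaks called in siNS/siNS and siHic5/siNS. Of the 10 genes, all but ELK4 had a siHic5/siNS GBR within 100 kb (9 of 10, against 43.6% of all 20033 protein-coding genes), and 4 had one in siNS/siNS (background 17.0%). The siHic5/siNS list was also the longest, and among the 1000 strongest peaks of each list the order turned, with 0 GBR near these genes in siHic5/siNS, 1 in siNS/siNS and 2 in siBRM/siNS. The 4 genes with a siNS/siNS GBR were ELK1, ELK3, ELF1 and ETV4. At ETS1, ETS2, ETV1, ETV5 and ETV6 there were 8 GBR, all of them blocked, and GR was called near these 5 genes in siHic5/siNS only. Over the whole siHic5/siNS list, 58.7% of GBR were called in no other list. The like share over all protein-coding genes is not given here, so the 5 genes are a description. The remaining gene, ELK4, had no GBR within 100 kb in any list. Median siHic5/siNS GBR per gene was 1.5 for the 10 genes and 0 over all protein-coding genes, with means of 1.90 and 0.883. ELK1 and ETV4 had the most, with 4 each, while 3.07% of all protein-coding genes had 4 and 2.77% had 5 or more.

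**Figure D1:**
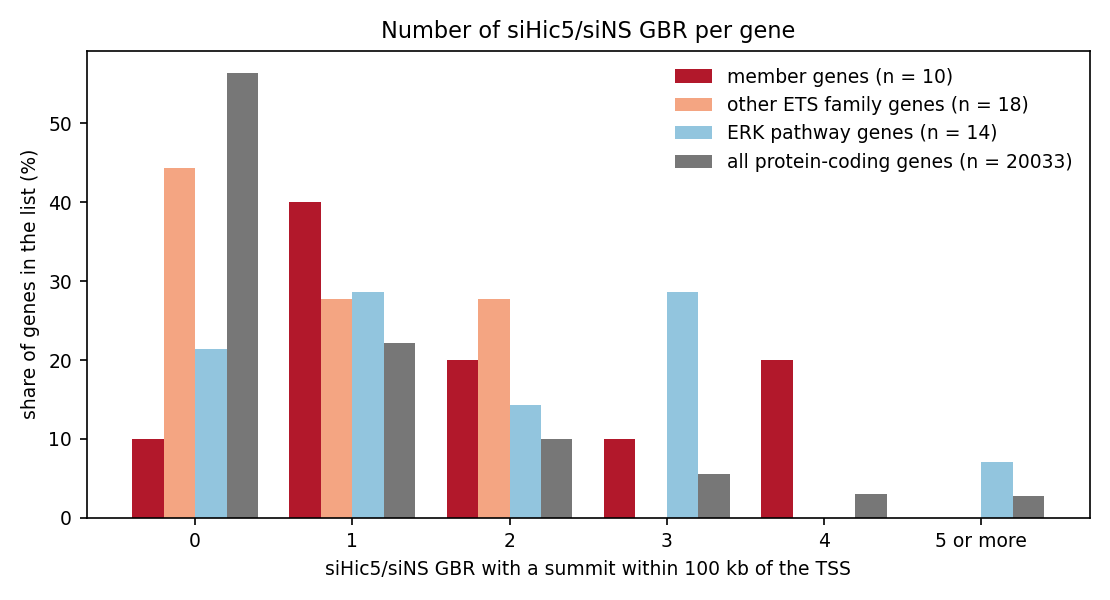
Share of genes (%) with a given number of siHic5/siNS GBR with a summit up to 100 kb from the TSS, for the 10 ETS factor genes, 18 other ETS family genes, 14 ERK pathway genes and all 20033 protein-coding genes; bars start at 0. Among the 10 genes 1 had no GBR (10.0%), compared with 56.4% of all protein-coding genes.

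Blocked GBR made up 15 of the 19 siHic5/siNS GBR (78.9%, 95% Wilson interval 56.7% to 91.5%). Over all siHic5/siNS GBR the share was 74.0%, which lies within this interval, so the blocked share near ETS factor genes was close to the background. The blocked GBR were the weaker ones. Their −log10 p-values in siHic5/siNS ran from 12.1 to 30.1 with a median of 20.2, against 37.5 to 51.1 with a median of 48.7 for the 4 shared GBR, and the ranges did not overlap. Over the whole list the medians were 18.7 for blocked and 54.7 for shared GBR, so blocked peaks were weaker by median there too. The ranges did overlap over the whole list, where blocked GBR reached 147, above the shared median. The value of 147 was the highest of any blocked GBR and does not show how far strength separated blocked from shared GBR. The part that peak strength had in these calls was not tested.

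**Figure D2:**
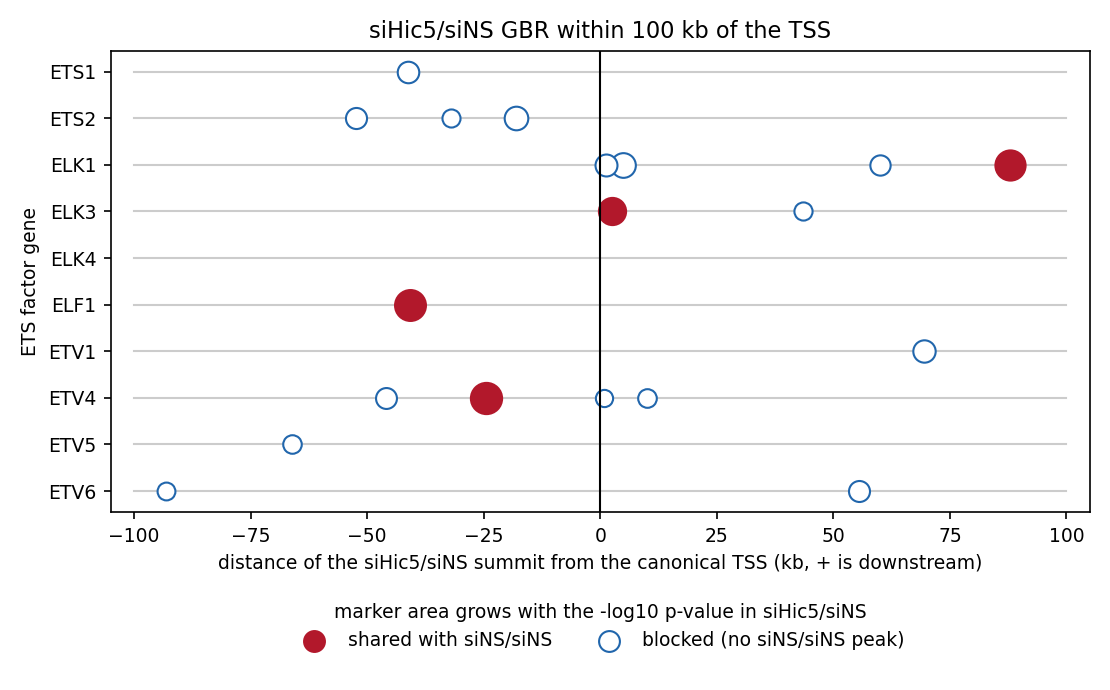
Position of each siHic5/siNS summit relative to the canonical TSS of its ETS factor gene (kb, positive is downstream), filled for shared and open for blocked GBR, with marker area growing with the −log10 p-value in siHic5/siNS. The 4 shared GBR lie at ELK1, ELK3, ELF1 and ETV4, and the line of ELK4 is empty.

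Most of the 19 summits were far from the TSS. Only 4 were within 10 kb, 12 were within 50 kb and 7 lay beyond, with 9 upstream and 10 downstream. The ETS factor gene had the nearest protein-coding TSS for 16 of 19, and 10 summits fell inside the ETS factor gene itself, 8 of them in introns. A further 4 lay only inside another protein-coding gene and 5 were intergenic. At 10 of the 19 GBR another protein-coding TSS was also within 100 kb, and peak lists do not assign a GBR to a gene. The 9 GBR with no such neighbor were those of ETS2, ELK3, ETV1, ETV5 and ETV6. At the limit of the rule, the farthest GBR inside was at ETV6, 93.2 kb upstream (−log10 p-value 13.3), and the nearest outside was at ELK4, 117 kb upstream at chr1:205749257-205749913 (12.8). This ELK4 peak was blocked, was called in siHic5/siNS alone and was nearest to the TSS of NUCKS1. A total of 11 GBR lay between 100 and 200 kb from the 10 genes, all blocked, and 4 of these were at ELK1.

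GR occupancy was next followed after removal of a chromatin remodeler together with Hic-5. Of the 15 blocked GBR, 14 had no siCHD9/siHic5 peak (93.3%, 70.2% to 98.8%), where the share over all blocked GBR was 90.6%. All 15 lacked a siBRM/siHic5 peak (100%, 79.6% to 100%), with a background of 83.3%. Each blocked GBR was also set beside all blocked GBR in the same of 10 classes of strength, and these lacked a peak in 94.0% and 89.0% of cases. Both counts near ETS factor genes were thus near what blocked GBR of like strength showed. The siBRM/siHic5 list had the highest cutoff of the 6, and at a common cutoff (−log10 q-value of 14.2) 9 of 12 blocked GBR lacked a siBRM/siHic5 peak (75.0%), because 3 GBR were then blocked that siBRM/siHic5 cells still held.

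Among the 4 shared GBR, 1 had no siCHD9/siHic5 peak (25.0%, 4.56% to 69.9%), compared with 32.3% of all shared GBR. None lacked a siBRM/siHic5 peak (0%, 0% to 49.0%), compared with 14.3%. Called in siHic5/siNS and no other list were 14 of the 19 (73.7%, 51.2% to 88.2%, background 58.7%), and called in all 6 lists was 1 (5.26%, 0.935% to 24.6%, background 9.25%). By gene, 3 of 10 had a GBR in siCHD9/siHic5 (background 16.4%), 4 in siBRM/siHic5 (22.2%), 2 in siCHD9/siNS (10.5%) and 2 in siBRM/siNS (9.92%). With 10 genes and 1 list per combination, these counts are descriptions.

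**Figure D3:**
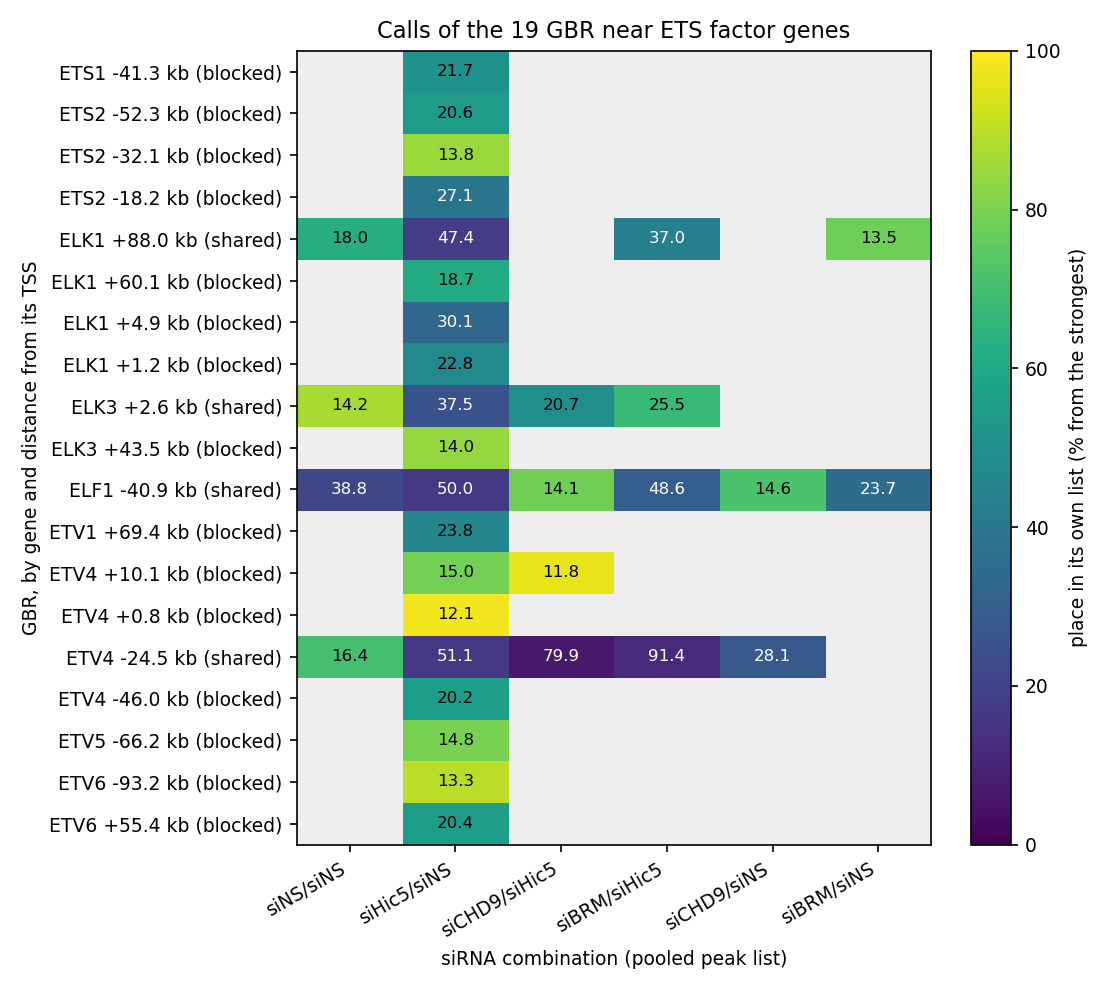
The 19 GBR (rows) in the 6 pooled lists (columns). A colored cell is a called peak with its −log10 p-value, shaded by its place in its own list (% from the strongest peak), and a gray cell is no call. The siHic5/siNS column is full, and outside it the cells are at the 4 shared GBR, with 1 exception at ETV4.

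ETS1 had 1 GBR, chr11:128628648-128629074, 41.3 kb upstream of its TSS between genes. It was blocked, with a −log10 p-value of 21.7 and place 4886 of 9533 in siHic5/siNS, near the middle of that list. It was also within 100 kb of the TSS of FLI1, another ETS family gene.

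ETS2 had 3 GBR, all blocked, intergenic and upstream. The farthest, chr21:38753378-38753800 at 52.3 kb, had a −log10 p-value of 20.6 and the palindromic GRE match GGAACATTCTGTTCC, 17 bp from the summit. The middle one, chr21:38773460-38774055 at 32.1 kb, was weak (13.8, place 8111 of 9533). The nearest, chr21:38787473-38787989 at 18.2 kb, was the strongest of the 3 (27.1, place 3715) and held 3 AP-1 matches and no GRE match. ETS2 thus had GR called upstream at 3 places in siHic5/siNS and at none in the other 5 lists, which include both double depletions with siHic5.

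The ternary complex factors differed among themselves. ELK1 had 4 GBR, all downstream of its TSS, in a gene-dense part of the X chromosome. Its shared GBR, chrX:47562378-47562826, was 88.0 kb away in an intron of ARAF, a RAF kinase of the ERK cascade, and only 1.40 kb from the ARAF TSS. It was called in siNS/siNS (−log10 p-value 18.0, place 1605 of 2582), siHic5/siNS (47.4, place 1733 of 9533), siBRM/siHic5 (37.0, place 1454 of 3383) and siBRM/siNS (13.5, place 994 of 1278). This region was in neither list from CHD9-depleted cells. The other 3 were called in siHic5/siNS alone. One, chrX:47590231-47590677 at 60.1 kb, lay in an intron of SYN1 and was nearest to the TSS of TIMP1, a metalloproteinase inhibitor (18.7). The remaining pair was at ELK1 itself, in an intron at 4.89 kb (chrX:47645426-47645892, 30.1, place 3217) and in a noncoding exon at 1.21 kb (chrX:47649154-47649593, 22.8). Neither held a GRE or AP-1 match in 1 kb.

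ELK3 had 2 intronic GBR. The shared one, chr12:96196771-96197260, was 2.62 kb downstream of the TSS and was called in siNS/siNS (14.2, place 2246 of 2582), siHic5/siNS (37.5, place 2410 of 9533), siCHD9/siHic5 (20.7, place 1218 of 2451) and siBRM/siHic5 (25.5, place 2279 of 3383). It was therefore in all lists with siHic5 but in neither list where CHD9 or BRM was depleted alone. The blocked GBR, chr12:96237614-96238048 at 43.5 kb, was weak (14.0). ELK4 had none.

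ELF1 had a single GBR and it was the only one of the 19 called in all 6 lists. At chr13:41059982-41060539 it lay 40.9 kb upstream of the canonical TSS but inside the gene, 1.21 kb downstream of the TSS of a longer ELF1 transcript and 1.28 kb from the TSS of WBP4, which encodes a splicing factor. Its −log10 p-value was 38.8 in siNS/siNS, 50 in siHic5/siNS, 14.1 in siCHD9/siHic5, 48.6 in siBRM/siHic5, 14.6 in siCHD9/siNS and 23.7 in siBRM/siNS. These values depend on the depth of each list and were not compared between lists. Its place within each list ran from 555 of 2582 in siNS/siNS to 1925 of 2451 in siCHD9/siHic5. At the common −log10 q-value cutoff, which depends on depth too, it was not in either list with CHD9 depletion.

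The PEA3 group genes held 6 GBR, of which 1 was shared. ETV1 had a blocked GBR in an intron 69.4 kb downstream of its TSS (chr7:13920032-13920443, 23.8), with no GRE, AP-1 or ETS match in 1 kb. ETV5 had a blocked GBR 66.2 kb upstream (chr3:186175105-186175457, 14.8), in an intron of DGKG, a diacylglycerol kinase gene.

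ETV4 had 4 GBR, and its gene span overlaps that of DHX8, an RNA helicase gene. The shared GBR, chr17:43570110-43571091, was 24.5 kb upstream of the canonical TSS and 8.78 kb downstream of the TSS of a longer ETV4 transcript, in introns of both genes. With 982 bp it was the widest of the 19. It was called in all lists except siBRM/siNS. A blocked GBR 10.1 kb downstream (chr17:43536116-43536527, 15.0) was the only blocked one with a peak in a double depletion, siCHD9/siHic5, where it was near the end of the list (11.8, place 2356 of 2451). A weak blocked GBR lay in a coding exon 0.750 kb downstream (chr17:43545428-43545800, 12.1, place 9354 of 9533), 81 bp from another ETV4 TSS. The last was 46.0 kb upstream in a DHX8 intron (chr17:43591826-43592589, 20.2).

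ETV6 had 2 blocked GBR, 93.2 kb upstream between genes (chr12:11556273-11556630, 13.3) and 55.4 kb downstream in an intron (chr12:11704884-11705376, 20.4). Neither was called in another list.

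The shared GBR changed their place within the lists to different extents, and the ETV4 and ELF1 GBR were singled out after the values were seen. Heights are not on a common scale between lists, so each GBR was placed among the GBR that siHic5/siNS and a given list had in common. The ETV4 GBR went from place 1297 to place 167 of 2343 in siCHD9/siHic5, and 39 GBR rose further. It also moved up in siBRM/siHic5, from 1511 to 403 of 3302, and in siCHD9/siNS, from 1003 to 387 of 1380. In siNS/siNS its place was lower by −log10 p-value, 1773 against 1345 of 2474. By signal value it was about the same there (70.2% and 71.7% from the strongest).

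The ELF1 GBR went from place 1323 to place 1875 of 2343 in siCHD9/siHic5, where 328 GBR dropped further, so this drop was not unusual in the list. The shared ELK3 GBR went the other way by a like amount there, from 1675 to 1197, and 408 GBR rose further. In siBRM/siHic5 the ELF1 GBR rose from 1551 to 1004 of 3302, where 572 GBR rose further. In siBRM/siNS it rose from 970 to 444 of 1247, and only 41 GBR rose further there. In siNS/siNS it stood at 545 against 1375 of 2474, and 191 GBR rose further. In siCHD9/siNS it hardly moved (995 against 1017 of 1380).

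Set against each other within a list, the signal value of the ETV4 GBR was 0.507 times that of the ELF1 GBR in siNS/siNS and 0.668 times in siHic5/siNS. The ratio was 1.00 in siBRM/siHic5 and 1.07 in siCHD9/siNS, and it was 2.60 in siCHD9/siHic5, where the signal values were 15.4 and 5.93. The ETV4 GBR was thus the lower of the pair in siNS/siNS and siHic5/siNS and the higher in siCHD9/siHic5, and in siBRM/siNS only the ELF1 peak was called. This ratio was not tested, because the pooled lists used here give 1 value per combination and the replicate libraries were not analysed here separately.

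**Figure D4:**
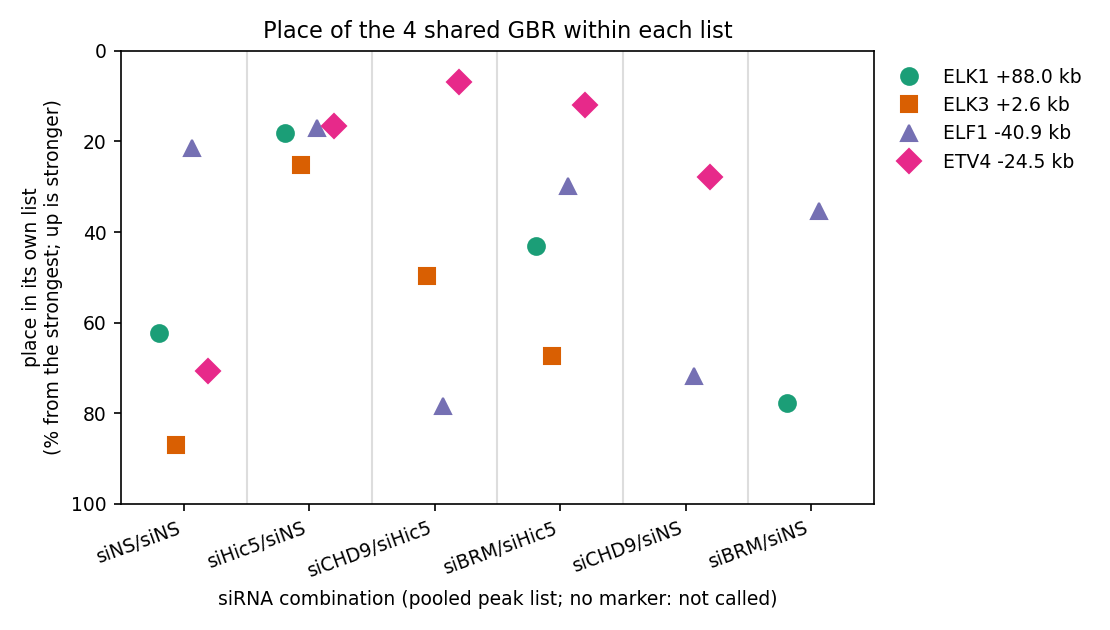
Place of the 4 shared GBR in each pooled list by −log10 p-value (% from the strongest peak, stronger upward), with no marker where no peak was called. In siCHD9/siHic5 the ETV4 GBR is among the strongest 6.90% and the ELF1 GBR is at 78.5%.

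Motif matches in 1 kb around the summit were counted to see which elements accompanied GR at these genes. A GRE match was in 11 of the 19 windows (57.9%), in 53.6% of all siHic5/siNS GBR and in 12.6% of windows 5 kb to either side of them. An AP-1 match was in 10 (52.6%), against 37.1% of all GBR and 16.4% of the flanks. An ETS match, written as C, then A or C, then GGAA, then A or G, then C or T, was in 9 (47.4%), against 37.9% and 27.4%. All 3 shares over all GBR lay within the 95% Wilson intervals of the 19, which were 36.3% to 76.9%, 31.7% to 72.7% and 27.3% to 68.3%. Both strands were searched, and an AP-1 and an ETS match could overlap.

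GRE matches were in 4 of 4 shared and 7 of 15 blocked GBR, against 66.9% and 48.9% of all shared and blocked GBR. ETS matches had the opposite split, with 0 of 4 shared and 9 of 15 blocked, against 35.0% and 38.9%. These counts are too small to separate from the whole list, and with a shorter ETS core, C, then A or C, then GGAA, 1 of 4 shared and 14 of 15 blocked windows had a match (77.3% and 78.8% of all shared and blocked GBR).

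The elements lay at different distances from the summit. The nearest GRE match was 7 to 137 bp away with a median of 31 bp, and 9 of 11 were within 100 bp. The nearest AP-1 match was 41 to 466 bp away (median 117 bp), within 100 bp at 5 of 10. The nearest ETS match was 96.5 to 472.5 bp away (median 231.5 bp), within 100 bp at 1 of 9, the ETV4 GBR 10.1 kb downstream. Over all siHic5/siNS GBR with a match the medians were 20 bp, 90 bp and 149.5 bp, in the same order. In 200-bp windows GRE matches remained in 9 of 19, AP-1 in 5 and ETS in 1 (5.26%, against 13.9% of all GBR). A match is a description of sequence, and binding of ETS or AP-1 factors was not measured.

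**Figure D5:**
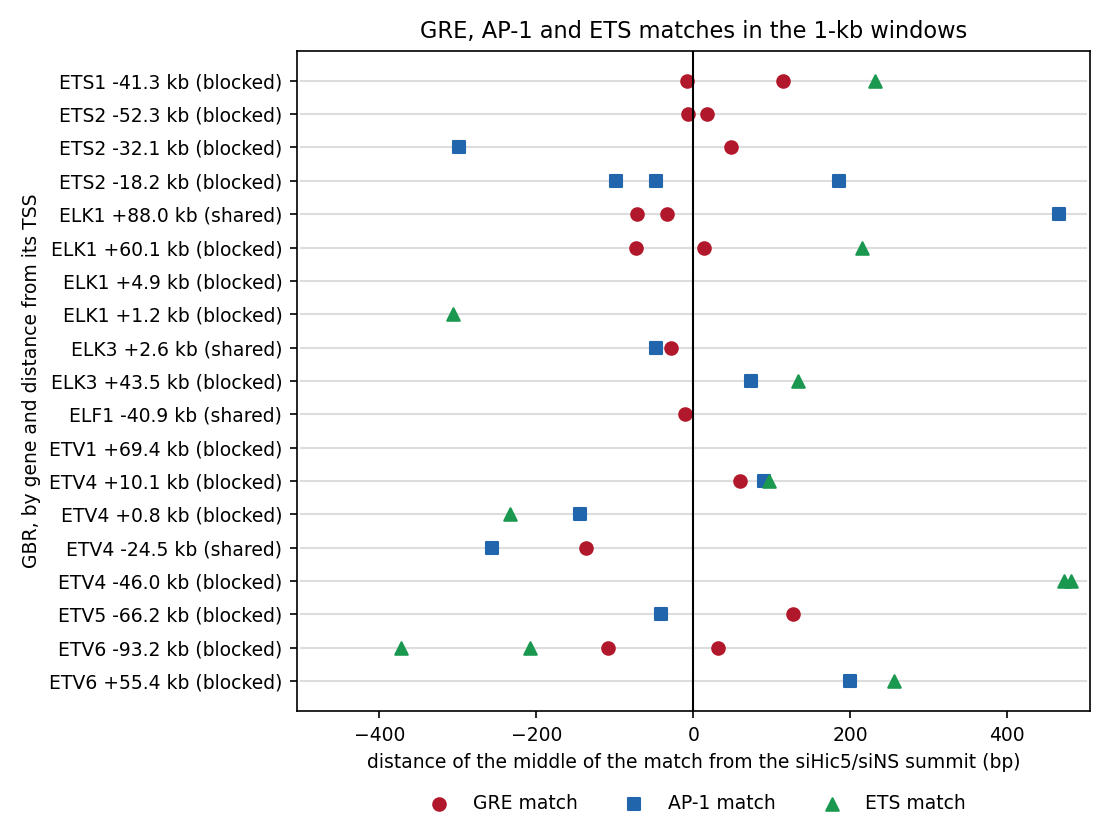
Distance (bp) of the middle of each GRE, AP-1 and ETS match from the siHic5/siNS summit in the 1-kb window of each of the 19 GBR. Nearest GRE matches lie within 137 bp of the summit, ETS matches are 96.5 bp or more away, and the rows of the ELK1 GBR at 4.89 kb and of ETV1 are empty.

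The rest of the ETS family and genes of the ERK pathway were counted by the same rule. Of 18 other ETS family genes, 10 had a siHic5/siNS GBR (55.6%), with 15 GBR in all and 12 blocked (80.0%). One of the 15 was the ETS1 GBR, which was also near FLI1. Shared GBR in this group were at EHF, with 2, and at SPIB, with 1. The SPIB GBR, chr19:50510148-50510659, was 91.5 kb downstream of the TSS of this lymphoid factor and was called in all 6 lists (−log10 p-value 70.1 in siHic5/siNS). Of 14 ERK pathway genes, 11 had a siHic5/siNS GBR (78.6%), with 26 GBR and 22 blocked (84.6%). Over all protein-coding genes 43.6% had one, and 74.0% of all siHic5/siNS GBR were blocked. Median and mean GBR per gene were 1.5 and 1.86 for the ERK pathway genes, close to 1.5 and 1.90 for the 10 ETS factor genes. For the other ETS family genes they were 1 and 0.833. SPRY4, a feedback inhibitor of receptor tyrosine kinase signaling, had 6, of which 5 were blocked. Its shared GBR, chr5:142356448-142357451, was 31.9 kb upstream, was called in all 6 lists and had a −log10 p-value of 136, above each of the 19 GBR near the ETS factor genes. In siCHD9/siHic5, 6 of the 14 ERK pathway genes, 2 of the 18 other ETS family genes and 3 of the 10 ETS factor genes had a GBR, beside 16.4% of all protein-coding genes. In siBRM/siHic5 the counts were 7 of 14, 5 of 18 and 4 of 10, beside 22.2%.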

How the data were processed

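GR ChIP-seq peaks were analysed in 6 lists, each made from 2 pooled ChIP replicates. Per the labels and the study's methods, the authors mapped trimmed reads to GRCh38/hg38 by BWA, discarded mitochondrial reads and duplicates, called peaks with MACS2 and filtered them by reproducibility between replicates (IDR). Tool versions and the IDR threshold are not given in the sources used here. Each list deposited by the authors gives a signal value, which the MACS2 format defines as fold enrichment over input and the study's supplement describes as an average enrichment in CPM. Per peak the authors also deposited the −log10 of the MACS2 p-value, a q-value score on the same −log10 scale, and the summit offset. The replicate libraries were not analysed here separately, so there was no spread between replicates and no test. Because read depth affects which weak peaks are called and was not in the lists, heights and −log10 p-values are given per list. They were compared directly only within a list. Places within a list, and the within-list ratio of the ETV4 to the ELF1 signal value, were set side by side between lists.

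Canonical TSS of 20033 protein-coding genes came from GENCODE release 44, and GBR with a summit within 100 kb were counted. Lists were matched by an overlap of at least 1 bp. Ranks followed the −log10 p-value. Wilson intervals (95%) are given for shares and reflect counting error alone. Motifs were searched as consensus sequences on both strands of GRCh38/hg38 in 1-kb windows, and GRE of 15 bases could have 1 mismatch at 10 defined positions. Printed sequences were read from GRCh38/hg38. Coordinates count from 1. All 10 genes were named, with each GBR if a gene had 4 or fewer. Genes of the other lists were named by rule with 5 or more siHic5/siNS GBR or a GBR in all 6 lists, and EHF, FLI1 and the neighbors of the GBR were added after values were seen. The 10 genes and both other gene lists were chosen with earlier results of these data known. Overlap and motif counting were tested on simulated data. Alternatives were other overlap rules, cutoffs, TSS windows and motif patterns. Computations used Python 3.11.15, NumPy 2.4.6, pandas 2.3.3, SciPy 1.17.1, pysam 0.24.0, Matplotlib 3.10.9, samtools 1.23.1 and bedtools 2.31.1.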

Additional observations from a re-analysis of the deposited data

How the results depend on the processing

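Matching peaks by an overlap of 50% of the shorter peak, or by summits within 500 bp, left the call pattern of all 19 GBR as it was. Cutoffs mattered more. With all lists cut at a −log10 q-value of 14.2, GBR near the 10 genes numbered 1 in siNS/siNS, 2 in siCHD9/siHic5, 1 in siCHD9/siNS and 1 in siBRM/siNS. The blocked share was then 92.3%, blocked GBR without a siBRM/siHic5 peak made up 75.0%, and 9 GBR were called in siHic5/siNS only. Of the 13 siHic5/siNS GBR still listed, 4 changed their pattern, those of the shared GBR at ELK1, ELK3, ELF1 and ETV4. With a −log10 q-value of at least 20, the numbers were 1 in siNS/siNS, 7 in siHic5/siNS, 1 in siCHD9/siHic5, 1 in siCHD9/siNS and 0 in siBRM/siNS, the share without a siBRM/siHic5 peak was 50%, and 3 GBR were in siHic5/siNS only. Among the 1000 strongest peaks of each list there were 1 in siNS/siNS, 0 in siHic5/siNS, 1 in siCHD9/siHic5, 1 in siBRM/siHic5 and 1 in siCHD9/siNS, with 0 in siHic5/siNS only, so no share could be given. Within 50 kb of the TSS there were 12 siHic5/siNS GBR and 1 in siBRM/siNS, and within 200 kb there were 30 in siHic5/siNS. In 200-bp windows AP-1 matches were in 5 and ETS matches in 1 of 19 GBR. GRE matches with no mismatch were in 3, and matches to the ETS core of 6 bases in 15. The other 54 of 81 values computed under alternatives stayed within 1.5 times the reported count or place, or within the counting interval of the reported share. These include the places of the ETV4 and ELF1 GBR in siCHD9/siHic5 by signal value, which were 6.87% and 62.3% from the strongest against 7.13% and 80.0% by −log10 p-value, an alternative chosen after seeing the data. No paired analysis was possible because the lists used here were called on pooled replicates and the replicate libraries were not analysed here separately, and no replicate was left out for the same reason. The cause of a missing call was not tested.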

Other observations

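The shared GBR at ETV4 and ELF1 both lay inside their own gene, downstream of the TSS of a longer transcript and upstream of the canonical one. The summit of the ETV4 GBR differed by 11 bp or less between siHic5/siNS and either double depletion, and that of the ELF1 GBR by 15 bp or less.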
